A study of Homo sapiens with 6 samples.

Results

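The importin-beta family of nuclear transport receptors was examined in K562 cells, a human BCR-ABL-positive chronic myeloid leukaemia line of erythroid character. The 10 genes IPO4, IPO5, IPO7, IPO8, IPO9, IPO11, KPNB1, TNPO1, XPO1 and CSE1L were taken from the 19053 genes to which rows of the deposited table could be matched, by the RefSeq protein accession of each row. They were chosen with the fold changes of the comparison below already known, and IPO7 was the gene set beside its family. Their fold changes are therefore a description, with standard errors and no p-value, and nothing is supported with them.

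RNA-seq was done on 3 libraries from K562 cells expressing sh-lncRNA-IIRX, an shRNA against the lncRNA that the paper calls lncRNA-IUR-5, and on 3 libraries from K562 cells expressing sh-luc, an shRNA against luciferase. Both lines were made by lentiviral infection with the pSIH-H1-GFP vector and carried the hairpin stably, so the groups share infection and vector and differ in the hairpin. A difference between the hairpins and a difference between the derived lines cannot be told apart. The target of the knockdown hairpin, as the study lists it, is shown here because the hairpin is what differs between the groups. The labels name lncRNA-IIRX and the study lists a hairpin called sh-IUR-5, and their match is inferred from the study assigning these RNA-seq data to lncRNA-IUR-5.
sh-IUR-5 target: gctagtatcaggtttaaatag

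The libraries held 21023739 to 23320543 reads in sh-luc cells and 24325122 to 31481109 in sh-lncRNA-IIRX cells. Because the rows of the table are proteins, the level of the targeted lncRNA was not analysed here. All 12 erythroid and leukaemia markers checked, among them HBG1, GATA1, BCR and ABL1, had a mean of at least 1 RPKM (reads scaled to row length and library total), and their summed level was 20180 to 22552 RPKM in sh-luc and 16030 to 16721 RPKM in sh-lncRNA-IIRX cells. That sum is mostly HBG1 and HBG2, with mean levels of 7177 and 10352 RPKM. The markers did not move one way, since 5 were called lower (HBG1, HBG2, HBE1, HBZ and GATA1) and 4 higher (ABL1, BCR, TAL1 and TFRC). In the same test, described below, 23.6% of all genes were called lower and 26.6% higher. The part of the markers in the results below was not tested. Of 10 markers of other blood cells, LYZ alone reached that level, with 3 at 0. Libraries 2 and 3 of each group carry one series number in their labels, and their reads differed less (chi-square per row 1.9 in sh-luc and 1.51 in sh-lncRNA-IIRX, where sampling noise alone gives about 1) than those of pairs with library 1 (2.94 to 4.78). The study describes 3 independent groups of cells, and how the series number relates to them is not given in the sources used here, so the spread between libraries may be partly technical.

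Receptors of this family carry proteins and RNA through the nuclear pore. Importins bind cargo in the cytoplasm and release it in the nucleus when they meet the small GTPase Ran in its GTP-bound form, whereas exportins bind cargo together with that form and release it in the cytoplasm after hydrolysis of the GTP. KPNB1 (importin beta 1) works mostly through importin-alpha adaptors, which bind the classical nuclear localization signal, while most other importins of the family bind their cargo directly. In leukaemia the family is best known for XPO1, an exportin that is the target of a drug class.

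The closest relatives among the 10 genes were IPO7 and IPO8, whose coding sequences were identical at 67.7% of 3094 aligned bases. The longest run that the pair shares, bases 2187 to 2216 of either coding sequence in GENCODE release 44, is shown because it is the only word of 30 bases that both contain.
IPO7 and IPO8 shared run: tgcaggagaagatgcagagtgtcatgcagc
Of 3088 words of 30 bases in the IPO7 coding sequence, 1 was found in another gene of the table. Across the 10 genes no coding sequence had more than 1 such word in another gene.

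The 250 bases before the RefSeq start of IPO7 and of IPO8 are shown because these paralogues had the largest fold changes of the 10 genes. Capitals mark matches to 5 motifs searched on both strands: TTCNNNGAA, the palindrome bound by STAT factors, CACGTG, the E-box, CCGGAAGT, bound by ETS factors, the motif bound by ZNF143, and CCAAT. The windows are from the RefSeq annotation of GRCh38.p14, at chr11:9384402-9384651 on the plus strand and chr12:30695870-30696119 on the minus strand.
IPO7: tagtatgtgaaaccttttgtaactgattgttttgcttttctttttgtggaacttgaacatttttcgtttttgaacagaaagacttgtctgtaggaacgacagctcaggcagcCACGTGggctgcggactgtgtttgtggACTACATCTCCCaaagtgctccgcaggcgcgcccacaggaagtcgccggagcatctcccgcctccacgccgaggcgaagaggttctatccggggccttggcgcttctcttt
IPO8: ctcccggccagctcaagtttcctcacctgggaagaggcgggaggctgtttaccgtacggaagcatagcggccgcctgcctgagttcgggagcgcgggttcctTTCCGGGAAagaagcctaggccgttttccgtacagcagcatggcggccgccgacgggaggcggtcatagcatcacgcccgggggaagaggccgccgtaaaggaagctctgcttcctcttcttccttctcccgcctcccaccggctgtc
The IPO7 window held an E-box from 138 to 133 bases before the start and the ZNF143 motif from 111 to 100 bases before it, and the IPO8 window held the STAT palindrome from 148 to 140 bases before the start. Of 35116 windows of the same length, 6.57% held the STAT palindrome, 6.34% the E-box and 1.67% the ZNF143 motif. Windows were listed for 9 of the 10 genes, all except KPNB1. Of these, 1 held the STAT palindrome, 3 the E-box (IPO4, IPO7 and XPO1), 1 the ETS motif (IPO4, against 3.42% of all windows), 1 the ZNF143 motif and 5 the CCAAT motif (against 32% of all windows). The windows of IPO7 and IPO8 had none of the 5 motifs in common, and a match is a description of letters only.

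The comparison asks how transcripts changed when the lncRNA was silenced. Reads were summed over the rows of each gene and scaled by TMM, a factor per library that keeps the bulk of genes level, and the values below are the resulting CPM, read counts scaled to a common library total. Among the 10 genes, 9 had a log2 fold change above 0 in sh-lncRNA-IIRX cells. The values ran from -0.066 for IPO4 to 0.97 for IPO7, with a median of 0.54 against 0.015 over the 8530 genes tested. By the test run over all genes (edgeR, adjusted p under 0.05), 8 of the 10 lay past the threshold and higher, where 26.6% of all genes tested were called higher, 23.6% lower and 50.1% either way. Nothing is read from this count because the genes were chosen on it. With the series number of the labels as a term 9 of the 10 were called higher, CSE1L included, where 32.6% of all genes were higher and 30.1% lower. With libraries scaled to total reads 9 of the 10 were called higher, where 43.2% of all genes were higher and 11.4% lower. In 7 of the 10 genes the 3 sh-lncRNA-IIRX libraries all lay above the 3 sh-luc libraries, as in 30.8% of all genes tested, while 27.6% lay below in all 3.

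**Figure D1:**
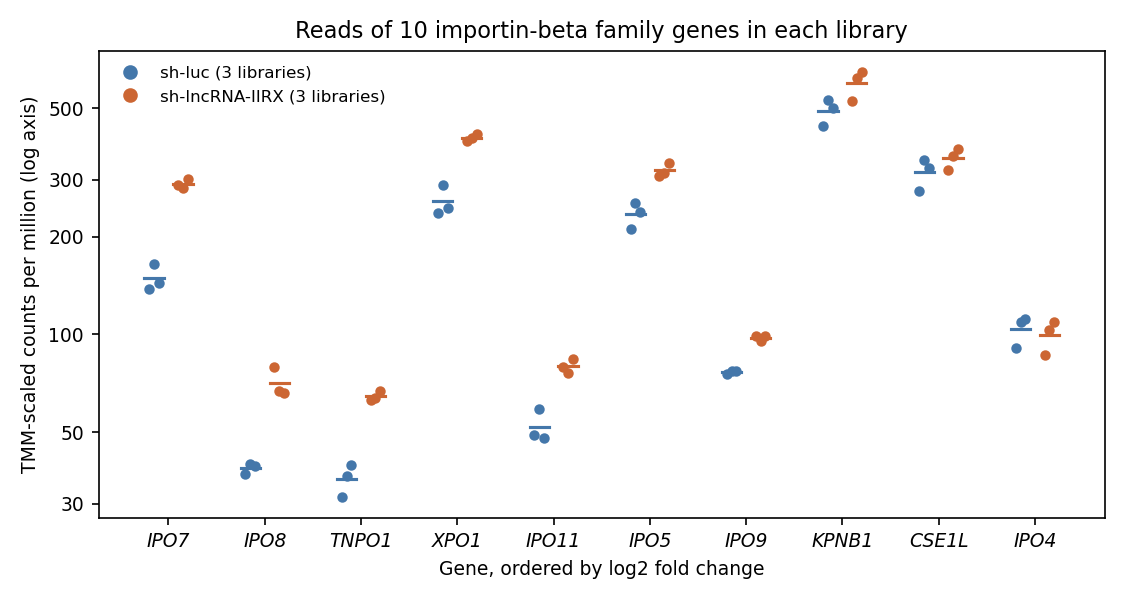
TMM-scaled CPM (log axis) of the 10 genes in each of the 3 sh-luc (blue) and 3 sh-lncRNA-IIRX libraries (orange), with a line at each group's mean. IPO7 rose from a mean of 149 to 292 and its groups do not overlap, while the groups of KPNB1, CSE1L and IPO4 overlap.

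IPO7, an importin that carries ribosomal proteins and, together with KPNB1, linker histone H1, gave 138, 165 and 144 CPM in sh-luc and 289, 284 and 302 CPM in sh-lncRNA-IIRX cells. The lowest sh-lncRNA-IIRX library lay well above the highest sh-luc library. The log2 fold change was 0.97 (SE 0.078), a ratio of 1.96, and it lay above that of 98.4% of the genes tested. The gene (ENSG00000205339.10) spans bases 9384652 to 9448127 of chromosome 11, plus strand, in hg38 as annotated by GENCODE release 44, which also gives the other positions below. It has a single row in the table, with 2495, 2729 and 2387 reads in sh-luc and 8191, 5965 and 6482 reads in sh-lncRNA-IIRX libraries.

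IPO8, the paralogue of IPO7 and an importin of SMAD and Argonaute proteins, had 37.2, 39.9 and 39.2 CPM in sh-luc and 79.1, 66.9 and 65.8 CPM in sh-lncRNA-IIRX libraries. Library 1 was the highest of its group, and the groups did not overlap. The log2 fold change was 0.87 (SE 0.087). IPO7 took 3.70, 4.15 and 3.68 reads for each read of IPO8 in sh-luc cells and 3.66, 4.24 and 4.59 in sh-lncRNA-IIRX cells, so that this ratio overlapped between the groups. Within libraries, the log2 fold change of IPO7 exceeded that of IPO8 by 0.11 (SE 0.112). IPO8 spans bases 30628988 to 30695869 of chromosome 12, minus strand.

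TNPO1 (transportin 1), which imports hnRNP proteins and other RNA-binding proteins, had 31.6, 36.5 and 39.5 CPM in sh-luc and 62.7, 63.8 and 66.8 CPM in sh-lncRNA-IIRX libraries. The groups were apart, with little spread within the sh-lncRNA-IIRX group. The log2 fold change was 0.85 (SE 0.089), and that of IPO7 exceeded it by 0.12 within libraries (SE 0.0973). TNPO1 spans bases 72816312 to 72916733 of chromosome 5, plus strand.

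The other importins that bind cargo directly differed more among themselves. IPO11, an importin of ubiquitin-conjugating enzymes, had 49.1, 58.9 and 48.0 CPM in sh-luc and 79.5, 76.0 and 84.0 CPM in sh-lncRNA-IIRX libraries (log2 fold change 0.62, SE 0.088). IPO5, an importin of ribosomal proteins and histones, had 212, 254 and 238 CPM against 309, 316 and 338 CPM (0.45, SE 0.078). For both genes the groups were apart, with sh-lncRNA-IIRX higher. IPO9, which carries actin and the core histones H2A and H2B, had 75.5, 77.4 and 77.0 CPM against 99.2, 95.4 and 98.6 CPM (0.35, SE 0.063), the tightest values within groups of the 10 genes. IPO4, an importin of ribosomal proteins and histones, had 91.1, 109 and 112 CPM against 86.3, 103 and 109 CPM (-0.066, SE 0.10). Its groups overlapped, and it was the only gene of the 10 with a value below 0, although scaling to total reads gave 0.12.

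KPNB1, the importin of the classical pathway, had 439, 530 and 499 CPM in sh-luc and 524, 617 and 646 CPM in sh-lncRNA-IIRX libraries. Library 1 was the lowest of both groups, and the lowest sh-lncRNA-IIRX library lay below the highest sh-luc library. The log2 fold change was 0.28 (SE 0.092), and KPNB1 was no longer past the threshold when sh-luc 1, sh-luc 3, sh-lncRNA-IIRX 2 or sh-lncRNA-IIRX 3 was left out. The gene spans bases 47649476 to 47685505 of chromosome 17, plus strand. Library 1 was also the lowest of both groups for IPO4, IPO5, TNPO1, XPO1 and CSE1L, and among the sh-luc libraries it was the lowest for every gene of the 10 except IPO11.

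The exportins of the set did not move alike. XPO1, which exports proteins with a leucine-rich nuclear export signal, had 237, 289 and 246 CPM in sh-luc and 396, 403 and 415 CPM in sh-lncRNA-IIRX libraries, so the groups were apart. Its log2 fold change was 0.65 (SE 0.079), and the gene spans bases 61476032 to 61538741 of chromosome 2, minus strand. CSE1L, which returns importin alpha to the cytoplasm, had 277, 346 and 327 CPM against 322, 355 and 375 CPM (0.15, SE 0.09), and its groups overlapped. It lay past the threshold only where sh-lncRNA-IIRX 1 was left out, among the fits that leave out 1 library. CSE1L spans bases 49046246 to 49096960 of chromosome 20, plus strand.

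The 10 genes together took 0.123%, 0.147% and 0.139% of all reads in sh-luc cells and 0.202%, 0.206% and 0.217% in sh-lncRNA-IIRX cells. These percentages are scaled to total reads, under which the median log2 fold change of all genes tested was 0.21. Shares within the reads of the 10 genes, in contrast, do not depend on how libraries are scaled. Of these reads IPO7 took 8.68%, 8.68% and 8.15% in sh-luc and 12.9%, 11.9% and 12.1% in sh-lncRNA-IIRX libraries. That was the largest gain of a share. XPO1 gained as well, from 14.7% ± 0.678 (SD, n = 3) to 17% ± 0.508 (SD, n = 3). The shares of IPO8, TNPO1 and IPO11 also lay higher, with the groups apart. The genes that gave up share were KPNB1, from 27.9% ± 0.286 to 25% ± 1.48, CSE1L, from 18% ± 0.517 to 14.7% ± 0.364, and IPO4, from 5.93% ± 0.35 to 4.17% ± 0.29 (SD, n = 3 each). The shares of IPO5 (13.4% and 13.5%) and IPO9 (4.39% and 4.12%) overlapped between the groups. Set against the mean of the other 9 genes on the log2 scale, IPO7 lay 0.306 ± 0.0631 above it in sh-luc and 0.815 ± 0.0338 above it in sh-lncRNA-IIRX cells (SD, n = 3 each).

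**Figure D2:**
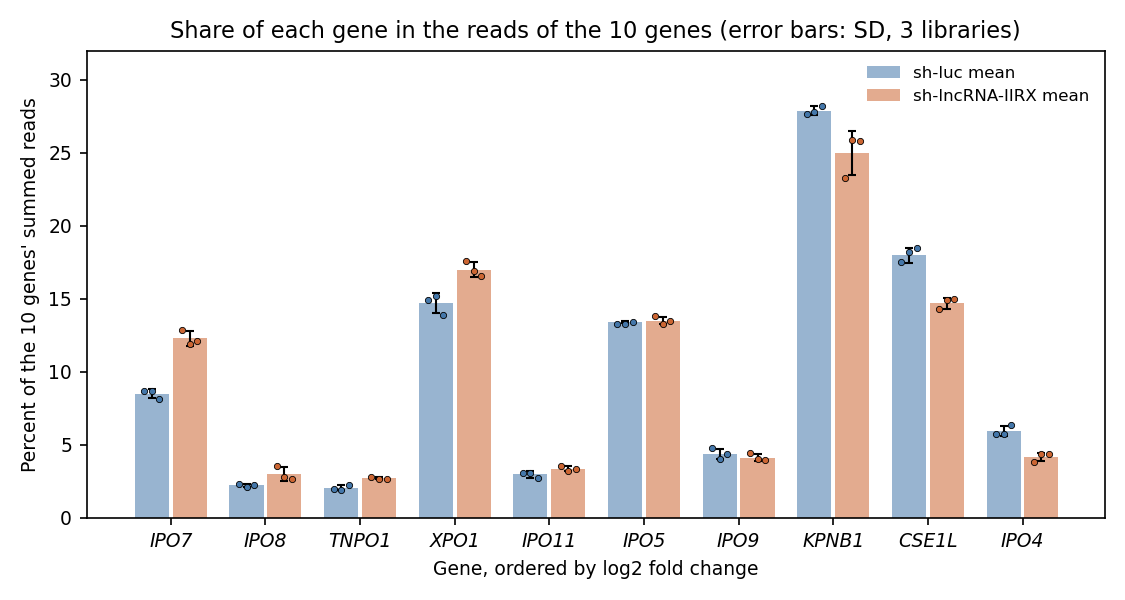
Share of each gene in the summed reads of the 10 genes, in percent, with bars at the mean of 3 libraries, error bars of 1 SD and a point for each library. IPO7 grew from 8.51% to 12.3% of these reads, while KPNB1, CSE1L and IPO4 shrank and the values of IPO5 and IPO9 overlap.

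Rows of one gene share coding sequence and may share reads, so their similar fold changes do not show isoforms changing together. The 6 rows of XPO1 had log2 fold changes of 0.60 to 0.66 in a fit over all rows, the 6 rows of IPO5 0.37 to 0.47, the 5 rows of IPO8 0.80 to 0.96, the 3 rows of TNPO1 0.72 to 0.96 and the 2 rows of IPO11 0.59 to 0.60. The 2 rows of KPNB1 had 0.19 and 0.32, and those of CSE1L 0.088 and 0.16. Rows of equal length held nearly but not exactly equal reads: the scatter of the 6 IPO5 rows of 3348 bases around an equal split gave a chi-square per degree of freedom of 0.674, and that of the 3 XPO1 rows of 3216 bases 1.09. Over 1271 such sets of rows in the table the median was 0.946, and the reads were identical in 0.97% of the sets and libraries. Reads placed on one row each would scatter in this way. How the authors placed shared reads is not given in the sources used here and was not tested.

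The placing of shared reads bears on the order of the levels. By reads summed over rows and divided by the summed row lengths, sh-luc cells had KPNB1 at 78.9 ± 7.45 RPKM, CSE1L at 43.5 ± 4.91, IPO7 at 37.3 ± 3.44, IPO4 at 25 ± 2.82, IPO9 at 19.1 ± 0.327, XPO1 at 10.7 ± 1.09, IPO5 at 9.09 ± 0.82, IPO11 at 6.78 ± 0.733, TNPO1 at 3.51 ± 0.414 and IPO8 at 2.29 ± 0.0857 RPKM (SD, n = 3 each). In that order CSE1L and IPO7 overlapped, and the other neighbours were apart. In sh-lncRNA-IIRX cells IPO7, at 82.1 ± 2.95 RPKM, stood second, above CSE1L at 54.2 ± 3.1 RPKM and apart from it, while IPO9 (27.4 ± 1.08) and IPO4 (26.8 ± 2.62) overlapped. With the summed reads divided by the longest row alone, which would suit reads placed on one row each, genes with many rows moved up. XPO1 then had 62.2 ± 6.37 RPKM and IPO5 54.6 ± 4.92 RPKM in sh-luc cells, above IPO7 at 37.3 RPKM in place 5, and the pairs XPO1 with IPO5 and TNPO1 with IPO8 overlapped. In sh-lncRNA-IIRX cells XPO1 (110 ± 1.87), CSE1L (105 ± 6.01), IPO5 (84.1 ± 3.08) and IPO7 (82.1 ± 2.95) came next after KPNB1 (198 ± 17.2 RPKM), with XPO1 and CSE1L overlapping, and IPO5 and IPO7 overlapping. Rows that matched no gene took up to 16.1% of the reads, and isoforms of the 10 genes among them would be missing from these levels.

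The 10 genes are long and mostly poor in G and C, and both properties went with the fold change over all genes. Coding lengths ran from 2631 bases (KPNB1) to 3348 (IPO5), so all 10 lie in the longest tertile of the genes tested (1590 bases or more), where the median log2 fold change was 0.16 and 40.8% were called higher, against -0.17 and 13.6% in the shortest tertile. Coding GC content ran from 37.1% (XPO1) to 59.9% (IPO4), and 8 of the 10 lie in the tertile of genes lowest in GC (median 0.16, 39.8% called higher), with IPO4 in the highest tertile (-0.10, 13%). Over the 10 genes, log2 fold change and GC content had a Pearson r of -0.659 and a Spearman rho of -0.43, and over the 8428 genes with a GC value -0.249 and -0.261. Points of this kind share their libraries, and the 10 genes were chosen with their fold changes known. IPO4, the highest of them in GC and the lowest in fold change, weighs heavily on the Pearson value. CSE1L, at 38.9% GC, had a log2 fold change of 0.15.

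When each library's trends on GC content and length were removed, the median of the 10 genes fell to 0.22 and 5 of them lay past the threshold and higher, where 23% of all genes were called higher and 25.2% lower. With the replicate number as a block beside the same removal, 7 were called higher, IPO5 and IPO9 included, and CSE1L and IPO4 were called lower, where 28.3% of all genes were higher and 31.5% lower. Without the block, IPO7 had 0.65 (SE 0.054), IPO8 0.54 (SE 0.085), TNPO1 0.54 (SE 0.078), XPO1 0.37 (SE 0.054) and IPO11 0.31 (SE 0.064). IPO5 and IPO9 had 0.12 each, KPNB1 0.0076, CSE1L -0.15 and IPO4 -0.16. The distance of IPO7 from the median of the other 9 genes was 0.51 before and 0.52 after, while IPO7 remained the highest and IPO4 the lowest of the 10.

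**Figure D3:**
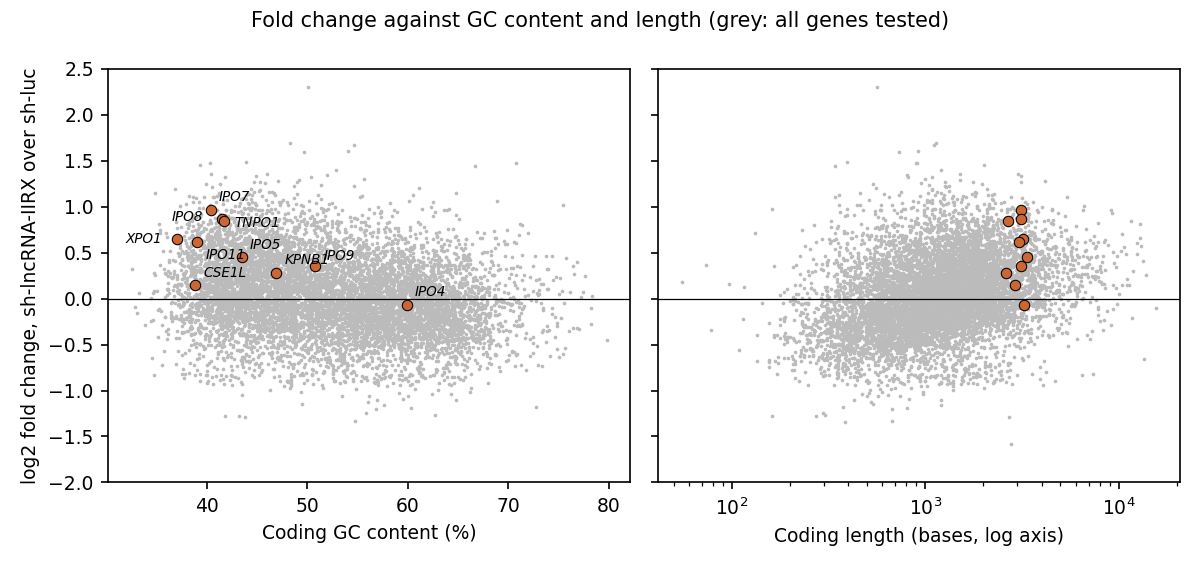
Log2 fold change, sh-lncRNA-IIRX over sh-luc, against coding GC content in percent (left) and coding length in bases (right, log axis) for all genes tested (grey) and the 10 family genes (orange, named on the left). The 10 genes sit at the long end, and IPO4, at 59.9% GC, is the lowest of them.

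**Figure D4:**
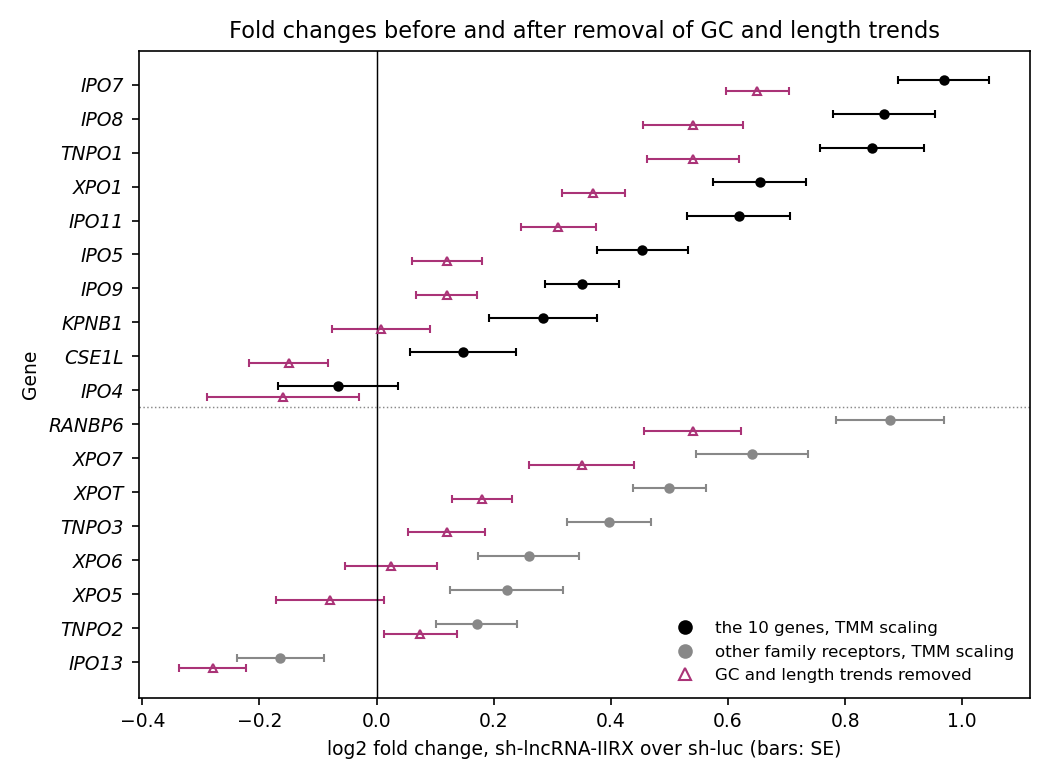
Log2 fold change with its standard error for the 10 genes (black) and 8 other receptors of the family (grey) with TMM scaling, and for both after removal of GC and length trends (open triangles). All 10 genes shift down, by unequal amounts, and IPO7 stays highest, at 0.97 and 0.65.

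Other receptors of the family are no members of the set and were tested in the same fit over all 8530 genes. This list and the lists below were also chosen with earlier results of these data known, so their calls are no independent support. Of the 10 other receptors listed, 8 were measured above the minimum of 1 RPKM, and 5 of these rose and none fell. Their median log2 fold change was 0.33. Over all genes 26.6% were called higher, and in the tertile of longest genes, to which all of these receptors belong, 40.8% were. RANBP6, a paralogue of IPO5, had 13.1, 13.9 and 15.2 CPM in sh-luc and 25.1, 25.2 and 27.2 CPM in sh-lncRNA-IIRX libraries (log2 fold change 0.88, SE 0.092, edgeR adjusted p = 3.86e-05). XPO7 rose by 0.64 (SE 0.10, edgeR adjusted p = 0.00029), XPOT, the exportin of tRNA, by 0.50 (SE 0.063, edgeR adjusted p = 0.000112) and TNPO3, which imports SR splicing factors, by 0.40 (SE 0.072, edgeR adjusted p = 0.000942). The rise of XPO6, the exportin of actin, was small at 0.26 (SE 0.086, edgeR adjusted p = 0.0266), and its adjusted p was 0.0798, 0.0601, 0.0682 and 0.0812 without sh-luc 1, sh-luc 2, sh-lncRNA-IIRX 1 and sh-lncRNA-IIRX 2. TNPO2 (0.17), XPO5 (0.22) and IPO13 (-0.16) did not pass the threshold. RANBP17, with at most 1 read in a library, lay under the minimum. XPO4 also lay under it, at 0.383 RPKM by the summed lengths of its 6 rows. It had 107 to 120 reads in sh-luc and 204 to 245 in sh-lncRNA-IIRX libraries. With no minimum XPO4 was called higher, where 18.1% of all genes were. After removal of GC and length trends RANBP6 (0.54), XPO7 (0.35) and XPOT (0.18) remained past the threshold, TNPO3 (0.12) and XPO6 (0.025) did not, and IPO13 lay past it as lower (-0.28).

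Importin-alpha adaptors bind the classical import signal and hand their cargo to KPNB1. Of 7 of them and SNUPN, the adaptor for spliceosomal snRNPs, 6 were tested, of which 4 rose and 1 fell. Over all genes tested 26.6% were called higher and 23.6% lower. KPNA1 had 12.4, 14.2 and 14.3 CPM in sh-luc and 19.4, 20.9 and 20.1 CPM in sh-lncRNA-IIRX libraries (log2 fold change 0.56, edgeR adjusted p = 0.000657). KPNA3 rose by 0.56 (edgeR adjusted p = 0.00054), KPNA4 by 0.48 (edgeR adjusted p = 0.00415) and KPNA6 by 0.43 (edgeR adjusted p = 0.00716). After removal of GC and length trends they had 0.34, 0.26 and 0.26, and KPNA6 no longer passed the threshold. With the replicate block beside that removal KPNA6 passed it (0.25, edgeR adjusted p = 0.0127). KPNA2, by CPM the most abundant adaptor tested, had 434 to 489 CPM against 411 to 490 CPM (0.0044, edgeR adjusted p = 0.969). After removal of GC and length trends it was called lower (-0.22). SNUPN fell by 0.25 on the log2 scale (edgeR adjusted p = 0.0201), and its adjusted p was 0.0643, 0.0663 and 0.0617 without sh-luc 2, sh-luc 3 and sh-lncRNA-IIRX 3. With scaling to total reads it had -0.064 and did not pass the threshold.

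The Ran cycle, which powers the receptors, showed a lower median. All 8 genes were tested, and 1 rose and 2 fell, where 26.6% of all genes were called higher and 23.6% lower. The median log2 fold change was -0.10. RAN itself had 698, 744 and 736 CPM in sh-luc and 621, 698 and 693 CPM in sh-lncRNA-IIRX libraries (-0.11, edgeR adjusted p = 0.176). RANGRF, which binds Ran and releases its nucleotide, fell by 0.50 on the log2 scale (SE 0.11, edgeR adjusted p = 0.00323). Its value was -0.31 with scaling to total reads and -0.27 after removal of GC and length trends (edgeR adjusted p = 0.0488). RANBP1, a cytoplasmic partner of Ran-GTP, fell by 0.30 (SE 0.10, edgeR adjusted p = 0.0241), with an adjusted p of 0.0796 and 0.0839 without sh-luc 2 and sh-luc 3 and a value of -0.19 without sh-lncRNA-IIRX 1. RANBP1 did not pass the threshold with scaling to total reads (-0.12). After removal of GC and length trends it had -0.23, with an edgeR adjusted p of 0.0502. With the replicate block beside that removal it passed the threshold (-0.23, edgeR adjusted p = 0.000342). RANBP2, the large Ran-binding protein of the pore's cytoplasmic filaments, rose by 0.35 (edgeR adjusted p = 0.00874), a row of 9777 bases whose value was 0.045 after removal of the length trend and -0.055 after removal of GC and length trends. With scaling to total reads the median of the list was 0.085, so the list's sign depends on the scaling. With GC and length trends removed, 1 gene of the list was called lower (RANGRF) and 0 higher. With the replicate block beside that removal, 4 were called lower (RAN, RANBP1, RANGAP1 and RANGRF) and 0 higher. In that fit 28.3% of all genes were called higher and 31.5% lower.

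Export of mRNA by NXF1 does not use Ran or this family, and 8 of its genes were read as the part of nuclear transport outside the family. Of the 8 tested, 1 rose and 1 fell, with a median of 0.047, where 26.6% of all genes were called higher and 23.6% lower. NXT2, a partner of NXF1, had 3.70, 4.73 and 3.08 CPM in sh-luc and 8.58, 7.75 and 6.85 CPM in sh-lncRNA-IIRX libraries (log2 fold change 1.01, SE 0.17, edgeR adjusted p = 0.000649). ALYREF, which loads NXF1 onto mRNA, fell by 0.36 on the log2 scale (SE 0.13, edgeR adjusted p = 0.0359). Its adjusted p was 0.0859 and 0.118 without sh-luc 2 and sh-luc 3, and its value was -0.20 without sh-lncRNA-IIRX 1. It did not pass the threshold with scaling to total reads (-0.18) or after removal of GC and length trends (-0.14). NXF1 (0.12), NXT1 (-0.082), DDX39B (-0.12), GLE1 (0.18), DDX19A (0.14) and DDX19B (-0.025) did not pass the threshold. DDX39B was called lower with the length trend removed (-0.18) and with GC and length trends removed (-0.22).

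**Figure D5:**
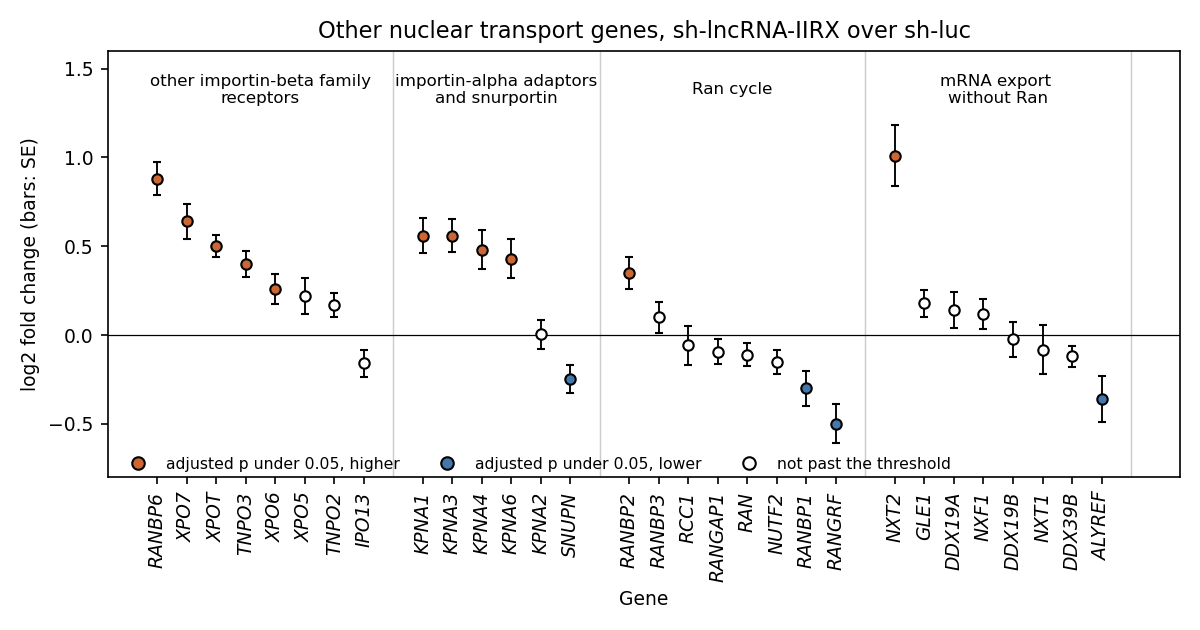
Log2 fold change with standard error of the other nuclear transport genes that were tested, by list, with orange for higher and blue for lower past an adjusted p of 0.05 and white for neither. Orange points number 5 of 8 among the other receptors, 4 of 6 among the adaptors and 1 of 8 in each of the other lists, where 26.6% of all genes were called higher, and the lists were not tested against each other.

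Among all genes tested, those whose pattern over the 6 libraries lay nearest to that of IPO7 were BBS10, BMI1, LRP6, NCKAP1 and ERI2, by the Euclidean distance of centred log2 CPM (0.054 to 0.118). BBS10 had 8.78, 11.0 and 9.36 CPM in sh-luc and 18.7, 19 and 19.8 CPM in sh-lncRNA-IIRX libraries, and BMI1 had 16.4, 19.4 and 16.3 against 34.3, 32.9 and 34.4 CPM. Both had their highest sh-luc value in library 2, as IPO7 did, but they were picked for likeness over these same 6 libraries. Among the members of the chosen set, TNPO1 lay nearest to IPO7 (distance 0.281, place 99 among all genes). IPO8 (0.306, place 136) and XPO1 (0.386, place 271) followed, and IPO4 lay farthest (1.31, place 4806). The distances of the other receptors of the family, RANBP6 among them, are not given here.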

How the data were processed

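Total RNA of 6 K562 libraries was sequenced. Adaptors were removed by the authors, who masked sequence of low complexity or quality before mapping to hg38. The submitters' processing notes name CASAVA 1.8, Trimmomatic 0.32, Bowtie2 2.1.0 and SAMtools 0.1.19. The authors deposited raw read counts for 109018 RefSeq protein accessions, and RPKM, which equals reads divided by row length and library total. How reads shared by isoforms were counted, and from which RefSeq release the rows came, is not given in the sources used here. Row lengths are coding lengths, since nearly all are multiples of 3. The authors' deposited table of their own comparison (pooled reads, pooled RPKM, fold change, p-value and q-value) was not used.

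Rows were matched to 19053 genes (64.7% of rows, 83.9% to 84.8% of reads) with the RefSeq list of GRCh38.p14, ignoring versions, and reads were summed per gene. The two-sided quasi-likelihood test of edgeR 4.0.16 in R 4.3.3, after TMM scaling, was run on the 8530 genes with a mean RPKM of at least 1, with Benjamini-Hochberg adjustment over all of them and a threshold of 0.05. The script was tested on simulated counts with known changes, in far fewer genes than were called here and without trends on GC or length. That test does not check the scaling or the error rate in these data. The TMM factors were 0.928 to 0.946 in sh-luc and 1.05 to 1.1 in sh-lncRNA-IIRX libraries, and without them the median log2 fold change was 0.21 in place of 0.015, with 3684 genes higher and 970 lower in place of 2267 and 2009. A floor of 3 reads corresponds to 0.0953 to 0.143 RPKM for a row of 1 kilobase and covers counting error only. GC content came from GENCODE release 44 coding sequences and was known for 8428 genes, and trends on it and on length were removed by lowess. Coding sequences were aligned with biopython 1.88. Protein sequences were not compared here, and 1 marker of the erythroid list is not reported here.

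Genes named are the 10 members, every gene of the 4 lists of other nuclear transport genes past the threshold, and the 5 genes nearest to IPO7. Untested or uncalled list genes, the markers and the motifs were named beside them. The members and lists were chosen with earlier results of these data known. Alternatives were total-read scaling, DESeq2 1.42.0 and its size factors, other minimum levels, one row per gene, a replicate block, the label series as a term, each library left out, and removal of length and GC trends. Removal of GC and length trends without the block, and the longest row as a gene's length, were added after the data were examined.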

Additional observations from a re-analysis of the deposited data

How the results depend on the processing

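IPO7 was above 0 in all 17 alternatives run for it. Its log2 fold change was 1.16 with scaling to total reads, 0.76 with the length trend removed and 0.65 with GC and length trends removed, with or without the replicate block, and 0.91 to 1.05 with each library left out. The number of the 10 genes past the threshold was 6 with the length trend removed (46.1% of all genes in either direction), 5 with GC and length trends removed without the block (48.3%), 9 with the block (7 higher, 2 lower, against 59.8%), and 7 to 9 with each library left out (40.8% to 49.7%). KPNB1 fell to 0.0053 and CSE1L to -0.15 with those trends removed and the replicate block, while IPO4 was above 0 in 3 alternatives, 0.12 with total reads. With a mean RPKM of at least 5, 2593 genes passed over the table and 9 of the other transport genes. Fewer genes were tested, IPO8, RANBP6, KPNA1, KPNA6, RANBP2 and NXT2 not among them, but SNUPN, RANBP1 and ALYREF lost the call while still tested and TNPO2 and XPO5 gained one, and the cause was not tested. RANBP2 turned to -0.053 and -0.055 with GC and length trends removed, with and without the block. IPO7 stood at place 5 by level in sh-luc cells, in place of 3, with the longest row as the length.

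The replicate numbers are shared by the groups, but the deviations from the group means correlated by 0.48, 0.19 and -0.025 in the 3 same-numbered pairs, so the number alone was not taken to pair the samples. Not every library correlated best with its own number (sh-luc 2 with sh-lncRNA-IIRX 3, 0.4). With the replicate block 5090 genes passed in place of 4276, 20 of the other transport genes in place of 15 and 9 of the 10 genes in place of 8 (59.7% of all genes in either direction), and the log2 fold change of IPO7 was 0.97. Over the other transport genes past the threshold, 217 of the values under alternatives kept direction and call, 31 lost the call and 2 turned. The labels put library 1 of both groups in series 1 and libraries 2 and 3 in series 2, and the correlations between the groups were -0.025 to 0.48 within a series and -0.43 to -0.13 across series. With the series as a term 5351 genes passed (62.7%), 9 of the 10 genes and 21 of the other transport genes.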
